A study of Mus musculus with 24 samples.

Results

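Open chromatin sites of Cux2 CPNs and Tle4 CThPNs were compared at P21, as 2 deposited ATAC-seq peak lists that together held 43964 of the 292908 peaks of the series on chromosomes 1 to 19 and X. The Cux2 list held 37426 peaks and the Tle4 list 6538. A peak was called shared when it overlapped a peak of the other list by at least 1 bp, and class-only when it did not. This left 770 Tle4-only peaks (11.8% of the Tle4 list) and 31637 Cux2-only peaks (84.5% of the Cux2 list). Because the Cux2 list was the longer, its 6538 peaks of highest −log10 p, a set of the same length as the Tle4 list, were taken as the strong Cux2 peaks, and 3734 of them (57.1%) were Cux2-only.

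The study asked which regulatory programs set neuron classes apart and which accompany their maturation. Both groups were mouse neurons sorted for tdTomato from the somatosensory and motor cortex of mice labelled C57BL/6 at P21, which the study's methods describe as kept on a mixed C57BL/6J background, either from Cux2-CreERT2:Ai14 mice or from mice of the genotype Tle4-2A-CreERT2:Ai14, whose mothers had received 4-Hydroxytamoxifen late in gestation. The Cre recombinase is switched on by tamoxifen, so the label marks cells that used the Cux2 or the Tle4 gene at the time of treatment. Each library was a pool of animals of both sexes, and each list came from 2 pooled libraries. The Cux2-CreERT2 line is described in the study's methods as also labelling some cortical interneurons. From single-cell sequencing of both labelled populations, the methods report few cells with interneuron markers and conclude that their effect was minimal. The lists give no value per library and no read count, so depth and replicate error are unknown here, and the comparison of both P21 lists has no test.

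Callosal projection neurons of the upper cortical layers connect the hemispheres, and Cux2 is a homeodomain factor of these layers. Corticothalamic projection neurons of the deepest layer send axons to the thalamus, and Tle4, a Groucho family corepressor, is used as their marker. In ATAC-seq a transposase cuts accessible DNA, so peaks mark promoters and distal gene regulatory elements (GREs), and distal elements usually differ more between cell types than promoters do.

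Stretches of 200 bp around the summits of 9 class-only peaks are shown as they read on the plus strand of NCBIM37. They were drawn from the strongest class-only peaks that recurred at P48 and from those at class marker genes. Capitals mark exact matches to any of 17 short motifs searched on both strands. Of these, AP-1 (TGANTCA) is bound by Fos and Jun proteins, the bHLH motif (CAGATG) by neurogenic factors such as Neurod proteins, the SOX motif by Sox proteins and the homeobox motif (TAATTA) by many homeodomain proteins. The first 2 are among the strongest Tle4-only peaks that were also in the Tle4 list of P48 and in no Cux2 list of any age.
Tle4-only, nearest coding gene Irf2bp2, chr8:129071929-129072128: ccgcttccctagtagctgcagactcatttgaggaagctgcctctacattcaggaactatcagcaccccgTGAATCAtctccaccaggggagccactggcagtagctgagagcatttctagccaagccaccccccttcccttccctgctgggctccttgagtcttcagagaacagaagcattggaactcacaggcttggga
Tle4-only, intron of Ift88, chr14:58112759-58112958: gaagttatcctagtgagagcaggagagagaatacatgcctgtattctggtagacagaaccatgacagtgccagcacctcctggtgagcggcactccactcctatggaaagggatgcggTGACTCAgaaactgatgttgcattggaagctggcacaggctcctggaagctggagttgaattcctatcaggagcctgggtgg
The next 3 are the strong Cux2-only peaks chosen by the same rule with the classes exchanged.
Cux2-only, Cngb3, chr4:19208593-19208792: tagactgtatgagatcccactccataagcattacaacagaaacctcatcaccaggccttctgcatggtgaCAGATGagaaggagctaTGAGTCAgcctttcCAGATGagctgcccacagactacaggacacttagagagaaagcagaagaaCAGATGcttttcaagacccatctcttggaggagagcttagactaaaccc
Cux2-only, nearest coding gene Defb41, chr1:18568799-18568998: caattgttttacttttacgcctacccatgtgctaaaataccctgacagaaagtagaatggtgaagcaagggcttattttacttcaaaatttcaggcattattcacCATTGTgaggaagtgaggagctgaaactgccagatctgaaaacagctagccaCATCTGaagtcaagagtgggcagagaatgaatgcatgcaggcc
Cux2-only, nearest coding gene Rims2, chr15:39523599-39523798: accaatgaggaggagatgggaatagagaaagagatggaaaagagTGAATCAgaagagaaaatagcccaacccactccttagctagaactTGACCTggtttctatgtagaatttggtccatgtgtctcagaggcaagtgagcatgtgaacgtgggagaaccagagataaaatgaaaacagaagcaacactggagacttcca
The last 4 are class-only peaks at marker genes of each class and were chosen after their values were seen.
Tle4-only, Tbr1, chr2:61642491-61642690: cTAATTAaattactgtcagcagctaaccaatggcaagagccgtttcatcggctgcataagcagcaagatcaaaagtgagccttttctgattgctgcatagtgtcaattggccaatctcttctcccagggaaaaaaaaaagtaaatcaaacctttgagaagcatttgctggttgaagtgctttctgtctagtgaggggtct
Tle4-only, Tle4, chr19:14496279-14496478: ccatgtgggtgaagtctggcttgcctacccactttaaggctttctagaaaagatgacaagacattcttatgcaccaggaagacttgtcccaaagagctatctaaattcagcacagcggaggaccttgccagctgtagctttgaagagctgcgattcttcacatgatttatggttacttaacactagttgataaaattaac
Cux2-only, Cux2, chr5:122366918-122367117: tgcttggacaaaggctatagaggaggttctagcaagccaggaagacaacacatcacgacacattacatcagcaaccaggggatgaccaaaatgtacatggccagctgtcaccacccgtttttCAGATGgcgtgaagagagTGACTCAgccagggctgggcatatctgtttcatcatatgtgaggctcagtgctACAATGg
Cux2-only, Rasgrf2, chr13:92113827-92114026: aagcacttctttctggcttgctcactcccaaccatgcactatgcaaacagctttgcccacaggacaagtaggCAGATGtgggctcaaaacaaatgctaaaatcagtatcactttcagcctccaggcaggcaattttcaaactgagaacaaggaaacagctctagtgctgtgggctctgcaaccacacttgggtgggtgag
Both Tle4-only peaks of the first group held an AP-1 match, and Cngb3 held 1 AP-1 and 3 bHLH matches. The stretch at Tbr1 held a single homeobox match and that at Tle4 no match. The stretch at Cux2 held 1 match each to AP-1, bHLH and SOX.

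Of the 2 genes whose loci drove the sort, Cux2 carried class-only peaks of its own class alone and Tle4 those of both classes. At Cux2, all 4 assigned peaks were Cux2-only and none came from the Tle4 list. The strongest (chr5:122366678-122367353, −log10 p 39.9, fold enrichment 15.1) lay inside the gene, 275 bp from the TSS of one of its shorter transcripts. It was present in the Cux2 lists of P21 and P48 and in no other. At Tle4, the promoter was open in both lists, with −log10 p 69.4 in Cux2 CPNs and 51.5 in Tle4 CThPNs. The Tle4 list added 2 Tle4-only peaks in intergenic sequence past the downstream end of the gene, with −log10 p 28.2 and 21.3. They lay 31828 and 17868 bp from the nearest Tle4 TSS, which is that of a shorter transcript and not the one at the shared promoter peak. The Cux2 list had 2 Cux2-only peaks at the other end of the gene, neither of them a strong Cux2 peak. They lay in intergenic sequence 22774 and 37783 bp upstream of the TSS at the shared promoter peak (the stronger at −log10 p 19.7). The stronger Tle4-only peak (chr19:14496041-14496757) recurred in the Tle4 lists of E18.5, P1, P3 and P7, not in that of P48, and in no Cux2 list. The weaker Tle4-only peak (chr19:14510182-14510917) was also in 4 Cux2 lists, those of E18.5, P1, P3 and P7. The promoter of Gt(ROSA)26Sor, the locus that carries the reporter, had 1 peak in each of the 12 lists, at −log10 p 16.3 in the Cux2 list and 22.1 in the Tle4 list of P21. Since the libraries are bulk preparations, a site open in fewer cells and a site less open in each cell cannot be told apart.

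A promoter peak was found at Tbr1, the T-box factor gene of deep-layer neurons, in Tle4 CThPNs and not in Cux2 CPNs at P21. The peak (chr2:61642107-61643073, summit 81 bp from the TSS, −log10 p 27.5, fold enrichment 7.59) was the only peak of either P21 list assigned to the gene. A promoter peak of Tbr1 was present in all 6 Tle4 lists and in 2 Cux2 lists, those of E18.5 and P7. Among all 22350 protein-coding genes, 6692 (29.9%) had a promoter peak in the Cux2 list, 3628 (16.2%) in the Tle4 list and 1901 (8.51%) among the strong Cux2 peaks. Only 193 genes (0.864%) had one in the Tle4 list alone, against 3257 (14.6%) in the Cux2 list alone and 3435 (15.4%) in both.

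The callosal and upper-layer list held 22 genes, and none of them had a Tle4-only peak assigned, that is, had the nearest protein-coding TSS within 100 kb of such a peak. Of these genes 10 had a strong Cux2-only peak. Over all protein-coding genes the shares were 2.62% for at least 1 Tle4-only peak (586 genes) and 9.18% for at least 1 strong Cux2-only peak (2051 genes). For a list of 22 genes, the absence of Tle4-only peaks thus lies near the share over all genes. Of the 14 strong Cux2-only peaks at callosal genes, 3 were at Unc5d, a netrin receptor, and 2 each were at Rasgrf2, a Ras guanine nucleotide exchange factor, and at Pou3f3, a POU-domain factor of upper-layer neurons. Cux1, Cux2, Epha3 (an ephrin receptor), Calb1 (calbindin), Ptn (pleiotrophin), Nectin3 (an adhesion protein, Pvrl3 in the annotation used) and Tmem163 had 1 each. The strongest was in an intron of Rasgrf2 (chr13:92113668-92114158, −log10 p 67.8, fold enrichment 20.2) and was present in the Cux2 lists of E18.5, P3, P21 and P48 and in no Tle4 list. A peak 84741 bp upstream of Calb1 (−log10 p 52.0) and 1 in an intron of Epha3 (−log10 p 42.4) were each in the Cux2 lists of P21 and P48 alone. The peak 31945 bp upstream of Ptn (−log10 p 32.5) was in all 6 Cux2 lists and in no Tle4 list. Not all were restricted in this way, since the peak 1446 bp upstream of Pou3f3 (−log10 p 33.2) was also in 4 Tle4 lists of other ages. Promoter peaks were called at 8 of the 22 genes in Cux2 CPNs (36.4%, beside 29.9% of all genes). In Tle4 CThPNs they were called at 2, Rorb and Nectin3 (9.09%, beside 16.2%). For a list of this length both shares lie near those over all genes. The 6 with a promoter peak in the Cux2 list alone were Cux2, Cdh13, Epha3, Calb1, Otof and Ptn. For Cux2, Calb1 and Ptn no Tle4 list of any age had one.

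Corticothalamic genes carried class-only peaks of both kinds. Of 23 genes, 5 had a Tle4-only peak (6 peaks in all), namely Tle4, Tbr1, Sox5, Syt6 and Thsd7b, beside the 2.62% of all genes. Strong Cux2-only peaks lay at 7 of them (8 peaks), beside the 9.18% of all genes, and Sox5, Syt6 and Thsd7b had both. Sox5 encodes a SOX factor that acts in deep-layer neuron fate. Its Tle4-only peak (chr6:143916508-143917064, −log10 p 21.7) was intronic and present in the Tle4 lists of P21 and P48 alone, whereas its strong Cux2-only peak (−log10 p 33.0) was also in the Tle4 lists of E18.5 and P7. Syt6, a synaptotagmin, had a Tle4-only peak 56366 bp upstream of its TSS (−log10 p 24.4) that was in all 6 Tle4 lists and in 1 Cux2 list, that of P48. Thsd7b had an intronic Tle4-only peak (−log10 p 25.1) found in the Tle4 lists of P21 and P48, and 2 strong Cux2-only peaks (−log10 p 36.2 and 50.7) that no Tle4 list held. Foxp2, Ntsr1, Grik3 and Cdh18 had 1 strong Cux2-only peak each. Those at Grik3 and Cdh18 were present in the other 5 Tle4 lists, and that at Ntsr1, the neurotensin receptor gene often used to mark corticothalamic neurons, was in 4 of them. A strong Cux2-only peak at P21 was thus, at these 3 genes, a site that Tle4 CThPNs had open at most other ages.

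**Figure D1:**
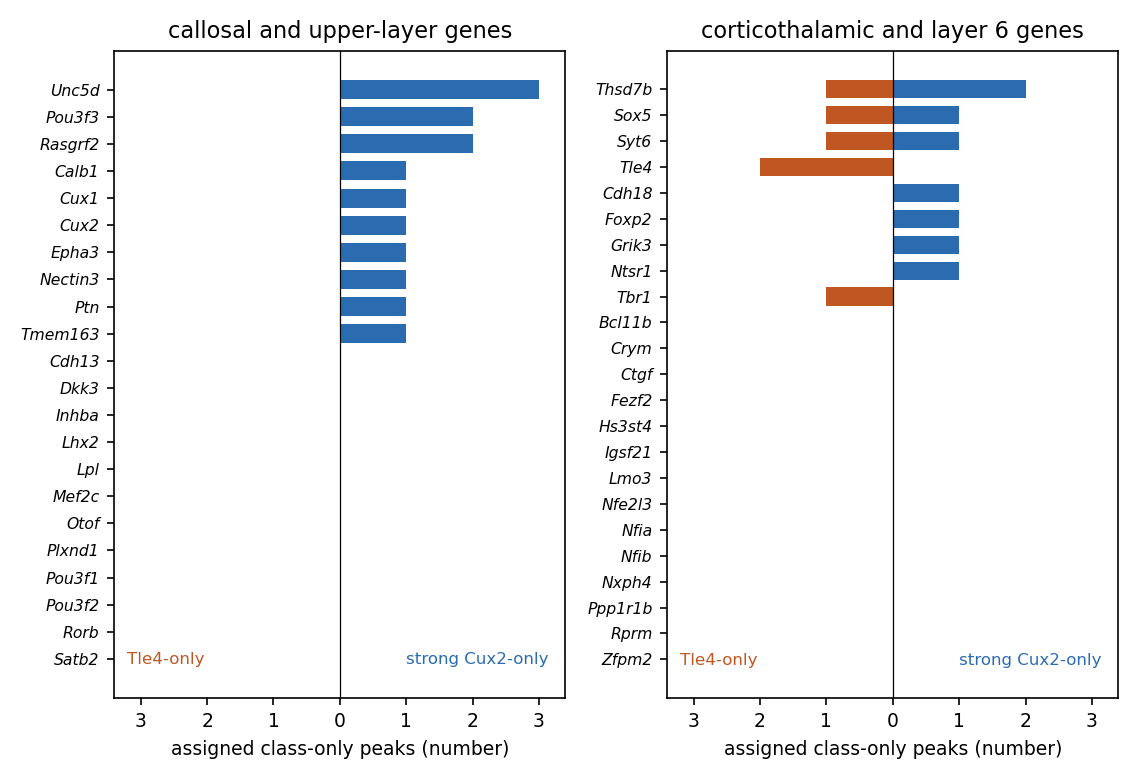
Number of class-only P21 peaks assigned to each gene of the callosal and corticothalamic lists, with Tle4-only peaks drawn to the left and strong Cux2-only peaks to the right of 0. The 22 callosal genes had 14 strong Cux2-only peaks and no Tle4-only peak, and the 23 corticothalamic genes had 8 and 6. For a list of 22 genes, the absence of Tle4-only peaks lies near the share over all genes.

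The other neuronal lists were read beside the shares over all genes, 2.62% with a Tle4-only and 9.18% with a strong Cux2-only peak. Of 10 subcerebral genes, 6 had a strong Cux2-only peak (60.0%), with 2 peaks at Etv1 (−log10 p 33.5 and 38.5), and none had a Tle4-only peak, which for a list of this length lies near the share over all genes. Of 16 genes of excitatory neurons, Grin2b and Neurod6 had a strong Cux2-only peak, at −log10 p 52.1 and 42.1, and Grin2a, an NMDA receptor subunit, had a Tle4-only promoter peak at −log10 p 21.8. Of 20 activity-regulated genes, 13 had a promoter peak in the Cux2 list (65.0%, beside 29.9% of all genes) and 5 in the Tle4 list (25.0%, beside 16.2%). The Cux2 share lay above that over all genes, while for a list of this length the Tle4 share lies near it. The 5 with a promoter peak in both lists were Fos, Jun, Egr1, Egr3 and Egr4. The 8 with a promoter peak in the Cux2 list alone were Fosl2, Junb, Egr2, Arc, Nr4a3, Bdnf, Homer1 and Per1, and every one of them had a promoter peak in at least 1 Tle4 list of another age. Homer1, a postsynaptic scaffold gene, had 2 strong Cux2-only peaks (−log10 p 64.6 and 64.4) and Bdnf, a neurotrophin gene, 2 (−log10 p 40.5 and 33.3), upstream of the TSS in each case. Fosb had the only Tle4-only peak of the list (1 of 20 genes, −log10 p 23.0), and it was present in the other 5 Cux2 lists.

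Markers of other cell types had promoter peaks less often than all genes (29.9% in the Cux2 and 16.2% in the Tle4 list), but some had distal peaks in the Cux2 list. The low promoter share was not particular to them, since corticothalamic genes stood at 17.4% in the Cux2 and 8.70% in the Tle4 list. In all, the Cux2 list assigned 21 peaks to interneuron, 19 to astrocyte, 19 to oligodendrocyte, 5 to microglia and 11 to endothelial genes, and the Tle4 list 1, 2, 1, 1 and 1. Per gene this was 1.31, 2.11, 1.73, 0.556 and 1.83 Cux2 peaks, against 1.25 over all protein-coding genes, 4.50 at callosal and 2.65 at corticothalamic genes. By this mean only microglia genes lay below the value over all genes. The means leaned on single genes, as Cdh5 had 9 of the 11 endothelial and Reln 10 of the 21 interneuron peaks. In the same order, the share of genes with any Cux2 peak was 50.0%, 44.4%, 63.6%, 33.3% and 33.3%, against 53.1% of all genes. By that share only oligodendrocyte genes lay above the value over all genes. For the Tle4 list the values per gene were 0.0625, 0.222, 0.0909, 0.111 and 0.167, against 0.256 over all genes, 0.273 at callosal and 0.565 at corticothalamic genes. Of 16 interneuron genes, 2 had a promoter peak in the Cux2 list, Adarb2 and Reln, and 1 in the Tle4 list, Adarb2. The Cux2 list had peaks at 8 of the 16, with 10 at Reln, 2 each at Sst, Dlx6, Nxph1 and Adarb2, and 1 each at Gad1, Dlx2 and Npy. It had none at Gad2, Slc32a1, Dlx1, Dlx5, Lhx6, Pvalb, Vip or Prox1, and the Tle4 list had a peak at Adarb2 alone. Strong Cux2-only peaks lay at Reln (3), Dlx6 and Nxph1, and no interneuron gene had a Tle4-only peak. Among 9 astrocyte genes, Aldh1l1 and Sox9 had a Tle4-only peak (−log10 p 34.4 and 22.2), and Aldh1l1 and Slc1a3 had strong Cux2-only peaks. The share with a Tle4-only peak was 22.2%, like the 21.7% of corticothalamic genes, beside 2.62% of all genes. Tle4-only peaks at P21 were thus not particular to the corticothalamic list. The astrocyte share rests on 2 genes, and neither peak was in a Tle4 list of another age. Each Tle4-only peak at a corticothalamic gene was in a Tle4 list of another age. The share with a strong Cux2-only peak was also 22.2%, beside 9.18% of all genes. The Cux2 list had 6 peaks each at Aldh1l1 and Slc1a3, 5 at Slc1a2 and 2 at Sox9, while Gfap, Aqp4, Gja1, S100b and Aldoc had no peak in either list. No promoter peak was called at any of 11 oligodendrocyte, 9 microglia or 6 endothelial genes. The part of such cells in the class-only peaks was not tested.

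Sharing fell with peak strength and was far higher at promoters, taken as peaks within 1 kb of an annotated TSS. Among the 500 strongest Cux2 peaks 81.4% were shared, with 98.5% at promoters and 61.6% elsewhere. The share was 62.0% for ranks 501 to 1000, 34.9% for ranks 2001 to 6538 and 4.23% for ranks 25001 to 37426. Across the strong Cux2 peaks, 1539 of 1741 promoter peaks were shared (88.4%) against 1265 of 4797 distal peaks (26.4%). From the Tle4 side, 99.8% of the 500 strongest peaks and 79.9% of ranks 4001 to 6538 were shared, with 94.0% of promoter and 82.3% of distal peaks.

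**Figure D2:**
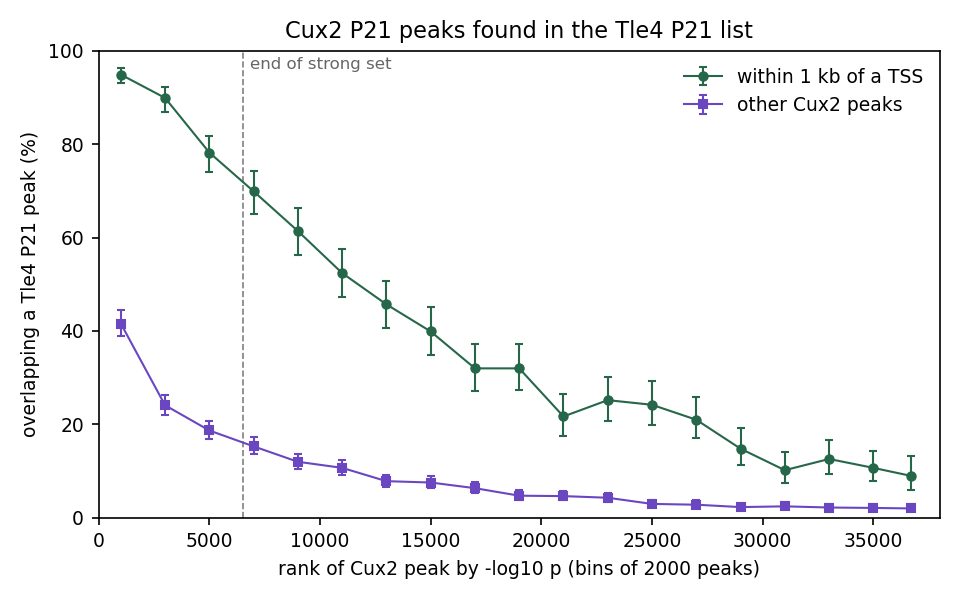
Share of Cux2 P21 peaks that overlapped a Tle4 P21 peak (%), in bins of 2000 peaks ranked by −log10 p, for peaks within 1 kb of a TSS (circles) and for the others (squares). Bars are 95% Wilson intervals, and the dashed line is the end of the strong set at rank 6538. The promoter share began at 94.9% and lay above that of distal peaks in every bin.

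The class-only sets differed in where they lay. Promoters made up 25.8% of Tle4-only peaks (199 of 770, 95% Wilson interval 22.9 to 29.1%) and 5.41% of strong Cux2-only peaks (202 of 3734, 4.73 to 6.18%). The share was 12.1% over all 31637 Cux2-only peaks and 13.0% over the weaker ones. The lists themselves differed in the same direction, so this contrast is not particular to class-only peaks. Promoters were 3304 of the 6538 peaks of the Tle4 list (50.5%) and 1741 of the 6538 strong Cux2 peaks. In the whole Cux2 list they were 6936 of 37426. In the shared sets promoters made up 53.8% of Tle4 peaks and 54.9% of strong Cux2 peaks. Introns held 32.6% of Tle4-only and 39.3% of strong Cux2-only peaks, and intergenic sequence 36.8% and 50.0%. The median distance from summit to the nearest protein-coding TSS was 19284 bp for Tle4-only peaks and 50242 bp for strong Cux2-only peaks, against 546 bp for shared Tle4 peaks and 380 bp for shared strong Cux2 peaks. Both class-only sets were thus more distal than the shared sets, and the Cux2 set the more so. Peaks are not replicates, and the intervals cover counting error only.

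**Figure D3:**
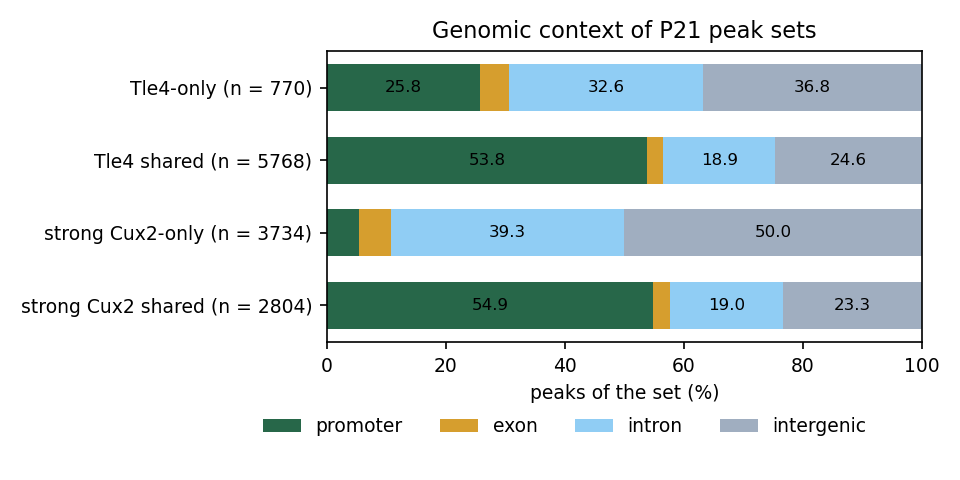
Genomic context of 4 P21 peak sets, as the share of peaks of each set (%) in promoters, exons, introns and intergenic sequence. Promoters hold 53.8% and 54.9% of the shared sets, 25.8% of the Tle4-only set and 5.41% of the strong Cux2-only set.

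Base composition followed context in part. The median GC content of the 300 bp around the summit was 48.7% for Tle4-only peaks and 44.3% for strong Cux2-only peaks, against 54.0% and 53.3% in the shared sets. Promoter peaks of the class-only sets differed, with a median GC content of 63.7% and a CpG observed/expected ratio of 0.752 in Tle4-only promoters, and 49.2% and 0.302 in strong Cux2-only promoters. The low CpG ratio was that of the 202 strong Cux2-only promoters, since over all 3819 Cux2-only promoters the medians were 56.3% and 0.612. Shared Tle4 promoters had medians of 61.0% and 0.778. Away from promoters the medians were 46.7% and 44.0%. Peak strength also set the groups apart, since Tle4-only peaks had a median −log10 p of 23.6 (interquartile range 22.1 to 26.4) near the lowest value of the list, 21.1, and strong Cux2-only peaks 37.9 (34.7 to 43.3), the set being bounded at 32.3 by its own rule. The peaks just inside and just outside that bound both had a −log10 p of 32.32.

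The strongest Tle4-only peaks fell into sites that Cux2 CPNs had open at other ages and sites they never had. Gng7, a G protein gamma subunit gene, had the strongest (chr10:80477531-80478019, promoter, 52 bp from the TSS, −log10 p 76.1, fold enrichment 19.3), and this peak was present in every other list of both classes. The promoter of Ern1, which encodes the unfolded protein sensor IRE1 (−log10 p 37.5), was likewise in all other lists, and that of Abcb9, a lysosomal peptide transporter gene (−log10 p 42.7), was in 4 Cux2 lists. By contrast, the peak 45307 bp from Irf2bp2 (chr8:129071900-129072236, −log10 p 40.3, fold enrichment 14.5) was in the Tle4 lists of P21 and P48 and in no other list. The same held for an intronic peak of Ift88, a ciliary transport gene (−log10 p 38.5), and a peak 12201 bp upstream of Sh3bp5 (−log10 p 38.3). The peak nearest Cldn18 (−log10 p 36.7) was in the Tle4 list of P21 alone. No gene had more than 2 Tle4-only peaks, and 21 genes had 2, Tle4 among them. Of the 8 of these with the highest summed −log10 p, Aox3, an aldehyde oxidase gene, had no promoter peak in either P21 list, and Scfd2 and Nub1 had promoter peaks in the Tle4 list alone. The others of the 8 were Gm5407, Elf5, Wdr70, Zfp236 and Limch1. Most genes with a Tle4-only peak, 565 of 586, had 1.

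Strong Cux2-only peaks reached higher values. The strongest was in an intron of Nup210l (chr3:89915487-89916179, −log10 p 91.6), but it was also in 4 Tle4 lists of other ages. The peak 696 bp from the TSS of Cngb3, a cyclic nucleotide-gated channel gene (chr4:19208428-19208931, −log10 p 88.8, fold enrichment 25.1), was in the Cux2 lists of P21 and P48 and in no Tle4 list. Of the 10 strongest, 7 were in no Tle4 list of any age, and 9 of the 10 were in no Cux2 list at P1. Several of the strongest lay far from any coding gene, among them those nearest Defb41 (313680 bp), Otol1 (536456 bp), Klf12 (210165 bp) and Nr2f1 (857889 bp), so that the nearest gene is a position and not a target. A peak 32368 bp from the TSS of Rims2, which encodes a presynaptic active zone protein (−log10 p 79.4), was in the Cux2 lists of P7, P21 and P48. Genes with most strong Cux2-only peaks were Elmo1, an activator of Rac signalling, Dlg2, a postsynaptic scaffold gene, Thsd7a and Akap6, an anchor of protein kinase A, with 5 each. Mcc, Ipcef1, Utrn and Pde4d, a cAMP phosphodiesterase gene, had 4 each. Thsd7a, Akap6, Mcc and Ipcef1 had no peak of the Tle4 list assigned, against 10, 14, 7 and 11 peaks of the Cux2 list. Elmo1, at chr13:20182488-20698397, had 23 Cux2 and 3 Tle4 peaks, of which 1 was Tle4-only, and Dlg2, at chr7:97650473-99595513, had 33 and 3.

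Peaks shared by both lists were compared by rank within each list. The lists differ in length and end at different −log10 p, 21.1 for Tle4 and 13.7 for Cux2, so the same −log10 p gives a lower percentile in the Tle4 list, and the median shift, Tle4 minus Cux2 percentile, was −16.7. Over the 5768 shared Tle4 peaks, Spearman's rho between the percentile of −log10 p in each list was 0.514, given as a description since all points come from the same pair of lists, and 2805 of them (48.6%) matched a strong Cux2 peak. The 5 with the largest shift towards the Tle4 list were all promoters, of Abtb2, Ccne1, Phpt1, Cdc25a and Etfa. At Abtb2 the peak stood at percentile 80.2 in the Tle4 list and 2.12 in the Cux2 list (−log10 p 37.6 and 13.9), and at Ccne1, the cyclin E1 gene, at 83.9 and 7.63 (40.1 and 14.5). None of the 5 with the opposite shift was a promoter. The peak 32104 bp from Ppa2 stood at percentile 99.7 in the Cux2 list and 0.665 in the Tle4 list (−log10 p 74.9 and 21.1), and that in Dlgap1, a postsynaptic scaffold gene, at 98.4 and 0.528 (57.5 and 21.1). The shifts are a description of ranks and not a difference in openness between the classes.

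The lists of the other 5 ages gave a measure that the choice of peaks had not used. Tle4-only peaks of P21 were found more often in the Tle4 list than in the Cux2 list at each age, with 44.5% against 40.1% at E18.5, 48.1% against 34.5% at P1, 51.6% against 39.1% at P3, 46.8% against 38.6% at P7 and 57.0% against 42.7% at P48. The mean difference was 10.6 percentage points (SD 4.17, n = 5 ages), in 5 of 5 ages the same direction, with p = 0.0625 in an exact two-sided permutation test over sign flips, the smallest p that 5 ages allow, so p < 0.05 could not be reached. The same peaks were followed at each age, so the 5 ages are not independent of each other. With all lists cut to 6538 peaks the mean was 14.5 points (SD 12.6, n = 5 ages) and p again 0.0625 (exact permutation). P48 alone gave 36.6 points at this length, with 37.8% in the Tle4 list and 1.17% in the Cux2 list. The last value is not free of the choice of peaks. Tle4-only peaks were chosen as absent from the Cux2 list of P21, and the Cux2 list of P48 held 98.3% of the strong Cux2-only peaks of P21. Without P48 the mean for Tle4-only peaks was 8.99 points, a value computed after the data were seen. The Cux2 lists of the other ages still held many of these sites, as 452 of 770 (58.7%) were in at least 1 of them. Promoters made up 39.8% of those 452, and 66 of the 88 that were in all 10 lists of the other ages were promoters. A set of 181 (23.5%) was in the Tle4 list of P48 and in no Cux2 list of any age, of which 110 were in no early Tle4 list (E18.5 to P7) either. Promoters made up 4.97% of the 181. The Tle4 list of every age and no Cux2 list held 34 (4.42%). A further 102 (13.2%) were in no other list at all.

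Strong Cux2-only peaks were found mostly in the late Cux2 list. In the Cux2 lists they were present at 18.3% at E18.5, 16.8% at P1, 25.4% at P3, 39.6% at P7 and 98.3% at P48, the last being the longest list of the series (45642 peaks). With the P48 list cut to 6538 peaks the share there was 47.2%, against 3.78% to 11.8% at the other ages at that length. The Tle4 lists held 12.5%, 14.3%, 16.3%, 15.5% and 19.5% of them at the same ages. The mean difference was 24.1 points (SD 31.7, n = 5 ages), higher in the Cux2 list at 5 of 5 ages, with p = 0.0625 in the same exact permutation test. It was 10.4 points without P48. At equal list length the Cux2 list was higher at 3 of 5 ages, with a mean of 8.43 points (exact permutation p = 0.375), and at E18.5 and P1 the Tle4 list held slightly more, 4.63% against 3.78% and 5.01% against 4.23%. That mean rested on P48 (38.3 points), since without it the mean at equal length was 0.964 points. Of the 3734 peaks, 2470 (66.1%) were in the Cux2 list of P48 and in no Tle4 list of any age, and 1668 (44.7%) were also in no early Cux2 list. Only 98 (2.62%) were in the Cux2 list of every age and in no Tle4 list, and 34 (0.911%) were in no other list. At P48, 1 of the 3734 was in the Tle4 list and not in the Cux2 list, against 134 of 770 Tle4-only peaks (17.4%) that were in the Cux2 list and not in the Tle4 list. Both counts are from lists as deposited, of 45642 Cux2 and 11836 Tle4 peaks. With the Cux2 list of P48 cut to 6538 peaks, it held 9 of the 770 Tle4-only peaks (1.17%), against 42.7% as deposited. The count of 134 thus depends on list length.

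**Figure D4:**
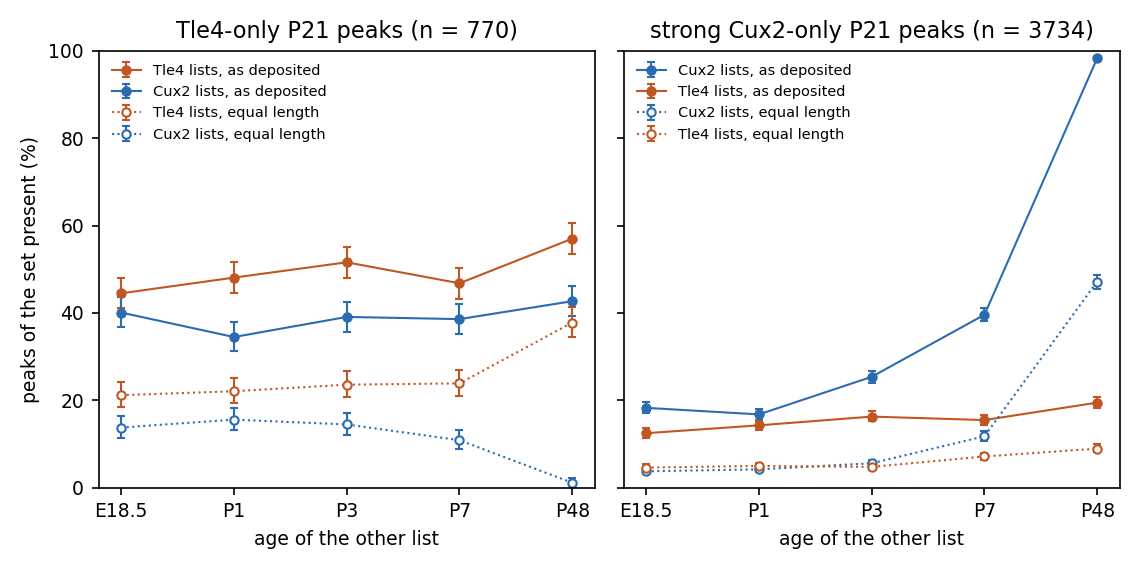
Share of the Tle4-only (left) and strong Cux2-only (right) P21 peaks present in the lists of the other ages (%), by age and class, with lists as deposited (filled points) and cut to 6538 peaks (open points). Bars are 95% Wilson intervals. With lists as deposited, which differ in length, presence of strong Cux2-only peaks in the Cux2 lists climbs from 18.3% at E18.5 to 98.3% at P48. That of Tle4-only peaks in the Tle4 lists stays between 44.5% and 57.0%. With lists cut to 6538 peaks, the latter is 21.2% to 23.9% from E18.5 to P7 and 37.8% at P48.

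Shared peaks had no common direction between the classes with lists as deposited, and the sign of the mean turned with list length. Shared Tle4 peaks were in 70.3% to 87.5% of cases in the Tle4 lists and in 70.7% to 98.0% in the Cux2 lists of the other ages, and shared strong Cux2 peaks in 70.6% to 99.9% of cases in the Cux2 lists and 70.8% to 94.1% in the Tle4 lists. The mean difference, own class minus other, was −2.64 points (SD 5.29, n = 5 ages) for the former and 1.39 (SD 3.57, n = 5 ages) for the latter. At equal list length these became 3.33 (SD 6.27, n = 5 ages) and −1.26 (SD 0.545, n = 5 ages), with shared strong Cux2 peaks then lower in the Cux2 list at 5 of 5 ages (exact permutation p = 0.0625) and no common direction for shared Tle4 peaks (exact permutation p = 0.375). Shared Tle4 peaks at P48 went from −10.5 points as deposited to 14.2 at equal length.

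Motif content differed between the class-only sets, and distal peaks were used so that promoters would not set the values. AP-1 matches were in 14.2% of distal Tle4-only peaks (81 of 571, 11.6 to 17.3%) and in 33.4% of distal strong Cux2-only peaks (1178 of 3532, 31.8 to 34.9%), against 26.4% of all distal P21 peaks. The AP-1 share of strong Cux2-only peaks was close to that of shared strong Cux2 peaks (32.8%), and the weaker Cux2-only peaks stood at 25.8%, so among Cux2 peaks this share moved with strength more than with sharing. Tle4-only peaks were lower than shared Tle4 peaks (25.5%), and also when both were limited to −log10 p from 22.1 to 26.3 (14.7% of 285 against 25.3% of 1050). This comparison at matched strength was added after the values were seen. The bHLH motif was in 26.6% of distal Tle4-only and 36.7% of distal strong Cux2-only peaks, against 35.2% of all distal P21 peaks.

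SOX and POU matches were most frequent in strong Cux2-only peaks among the sets compared. The SOX motif (ACAATG) was in 18.4% of distal strong Cux2-only peaks (17.2 to 19.7%), 9.98% of distal Tle4-only peaks (7.78 to 12.7%), 11.6% of shared strong Cux2 peaks and 15.7% of all distal P21 peaks. The POU octamer (ATGCAAAT), bound by factors such as those of the Pou3f genes, was in 5.72% of distal strong Cux2-only and 2.28% of distal Tle4-only peaks, against 4.08% of all distal P21 peaks, and its interval in strong Cux2-only peaks (5.00 to 6.53%) overlapped that in shared strong Cux2 peaks (2.94 to 5.08%). The opposite order was seen for ATCAAT, a core bound by Cut homeodomain factors such as Cux1 and Cux2, at 10.2% of distal Tle4-only peaks (7.94 to 12.9%), 5.71% of shared Tle4 peaks, 3.94% of distal strong Cux2-only peaks (3.34 to 4.63%) and 5.30% of all distal P21 peaks. At matched strength the last contrast was smaller, with 8.77% (6.01 to 12.6%) of Tle4-only and 6.10% (4.80 to 7.71%) of shared Tle4 peaks. ATCGAT, a related core, was in 1.93% and 0.142%. The CTCF core (AGGGGGC) was in 4.90% of distal Tle4-only peaks, 4.58% of shared Tle4 peaks and 1.90% of distal strong Cux2-only peaks. The GC content of the sets differs, as given above, and its part in these shares was not tested. A match is a run of letters and not an occupied site.

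**Figure D5:**
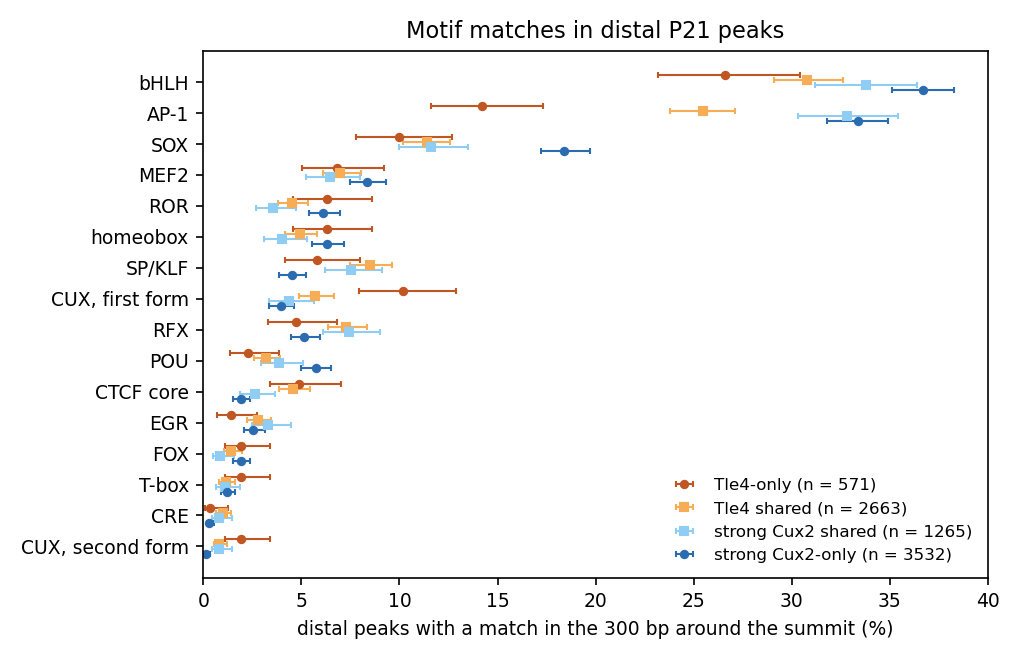
Share of distal P21 peaks (%) with an exact motif match in the 300 bp around the summit, for 16 motifs and 4 peak sets, with 95% Wilson intervals. The first CUX form is ATCAAT and the second ATCGAT; AP-1 stands at 14.2% in Tle4-only and 33.4% in strong Cux2-only peaks, SOX at 9.98% and 18.4%.

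The same motif shares were computed, after these values were seen, in distal class-only peaks of the other 5 ages. The longer list of each age was cut to the length of the shorter, and class-only was called against the uncut list of the other class. Peaks that overlapped a Tle4-only or a strong Cux2-only peak of P21 of the same class were left out. Those that overlapped a weaker Cux2-only peak of P21 stayed in, so the Cux2 sets are not independent of all Cux2-only peaks of P21. SOX matches were less frequent in Tle4-only than in Cux2-only peaks at 5 of 5 ages, on average 7.67% against 17.2% (difference −9.56 points, SD 2.93, n = 5). POU matches were also less frequent at 5 of 5 ages, 2.65% against 5.75% (−3.10, SD 0.826, n = 5), and ATCAAT matches more frequent at 5 of 5, 10.2% against 7.53% (2.65, SD 1.80, n = 5). For each of them the exact permutation over sign flips gave p = 0.0625, the lowest that 5 ages allow, which 9 of the 17 motifs examined reached with 1 direction at all 5 ages. The other 6 were ATCGAT, higher in Tle4-only peaks, and FOX, EGR, CRE, ROR and SP/KLF, higher in Cux2-only peaks, so this agreement was not particular to SOX, POU and ATCAAT. Sites common to several of these ages were kept, so the 5 ages are not independent of each other. The AP-1 difference had no common direction over these ages (−2.13 points, SD 5.56, n = 5, higher in Tle4-only at 2 ages, exact permutation p = 0.812). At P48 AP-1 matches were in 19.1% of Tle4-only and 31.1% of Cux2-only peaks, and at P7 in 10.9% and 9.75%. The bHLH difference had no common direction either (−3.89 points, SD 6.23, n = 5, higher in Cux2-only at 3 ages, exact permutation p = 0.375). For the CTCF core the order was opposite to that of P21, with 2.55% of Tle4-only and 4.60% of Cux2-only peaks on average (−2.06 points, SD 1.87, n = 5, higher in Cux2-only at 4 ages, exact permutation p = 0.125).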

How the data were processed

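The 12 lists, 1 per class and age, were made by the authors from 2 libraries per group: reads were aligned to NCBI37 (mm9) with Bowtie2, duplicates were filtered with Picard, and MACS2 peaks called on pooled replicates were kept after an irreproducible discovery rate filter. A shift of read ends is not given in the sources used here. Each deposited line holds a score, a fold enrichment (ratio over background), −log10 p and −log10 q values and a summit offset. The −log10 p was used for ranking and the fold enrichment for 1 alternative. It depends on depth, and the Tle4 list ended at 21.1 and the Cux2 list at 13.7. A version suffix appears in the peak names for Cux2 and not in those for Tle4, so class and processing run cannot be told apart.

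Peaks on chromosomes 1 to 19 and X were used (6 Cux2 and 2 Tle4 peaks left out at P21). Reference and annotation were NCBIM37 and GENCODE vM1, and all P21 peaks lay within its chromosome lengths. A promoter was within 1 kb of any TSS, otherwise exon, intron or intergenic sequence, and genes were the nearest protein-coding TSS within 100 kb. Motifs were exact matches on both strands in 300 bp. Overlap, context and motif searches were tested on simulated data. Groups came from the sample labels. Presence and motif shares at other ages were compared by exact sign flips (32 patterns), and all other comparisons have no test. Named peaks are the 10 of highest −log10 p per class-only set, the 8 strongest in the same class at P48 and in no list of the other class, and 5 shared peaks per direction of percentile shift. 1 of the named peaks is not reported here. Members and gene lists were chosen with earlier results of these data known. Python 3.11.15, pysam 0.24.0, scipy 1.17.1, pandas 2.3.3 and BLAST+ 2.17.0 were used.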

Additional observations from a re-analysis of the deposited data

Results flagged for a closer look

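One value stood apart from the others of its kind. The share of strong Cux2-only peaks present in the Cux2 list minus that in the Tle4 list was 78.8 percentage points at P48, far from the values at the other 4 ages. The gap to the next age was 0.716 of the whole range, above the critical value of 0.71 for 5 values, which chance passes in about 1 of 20 groups. The Cux2 list of P48 is also the longest of the series, with 45642 peaks, and the Tle4 list of P48 held 11836.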

How the results depend on the processing

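The sets were little changed by the overlap rule: 757 to 770 Tle4-only, 31556 to 31640 Cux2-only and 3727 to 3734 strong Cux2-only peaks, the last 4073 when strength was ranked by fold enrichment. Leaving out peaks similar to the mitochondrial genome, an alternative added after seeing the data, changed none of these 3 counts. With only the upper 50% of each list or strong set kept, there were 141 Tle4-only (4.31% of the peaks kept, against 11.8% of the whole list), 13949 Cux2-only and 1508 strong Cux2-only peaks, and promoters made up 29.1% of Tle4-only, 4.24% of strong Cux2-only and 66.3% of shared Tle4 peaks. Promoters within 500 bp made up 4.12% of strong Cux2-only and 52.5% of shared peaks, and with protein-coding TSSs alone 4.45% and 52.1%. Counting every gene with a TSS within 100 kb gave 2059 genes for Tle4-only and 4916 for strong Cux2-only peaks, more by construction. A 150 bp window lowered motif shares, to 7.14% and 25.2% for AP-1 in all Tle4-only and strong Cux2-only peaks. The mean difference in presence at other ages ranged from 9.64 to 12.1 points for Tle4-only and 10.4 to 29.5 for strong Cux2-only peaks when each age was left out, and was 19.3 and 25.1 points for the upper 50% of each set. At equal list length and without P48, an alternative added after seeing the data, it was 8.99 and 0.964 points. No paired analysis was possible because each list pools its replicates and holds no value per replicate. Depth is unknown, so absence from the shorter Tle4 list does not show closed chromatin.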
